A study of Homo sapiens with 6 samples.

Results

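The transcripts described here are 10 of the 26485 gene symbols counted in K562 cells: VIL1, CTSE, SEZ6L2, PACSIN1, ESR1, FAM167A, SULT1A1, RAB11FIP4, BANCR and AFAP1-AS1. They were picked because their RNA was higher after loss of ZNF410 in these same libraries, and because they stand outside the haemoglobin program for which K562 cells are known. Their difference between knockout and control is therefore a description and carries no test. What is tested is the difference between the guides, the difference between replicate numbers, and the response of relatives and chromosomal neighbours. These tests use the same libraries as the choice, which may favour genes that respond alike with both guides and in both replicate numbers. All 10 passed the filter on low counts, which left 12282 genes for testing.

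ZNF410 is a zinc-finger transcription factor whose best-known target in erythroid cells is CHD4. The CHD4 protein is the ATPase of the NuRD complex, which remodels nucleosomes and removes acetyl groups from histones, and which keeps fetal globin genes low in adult red cell precursors. K562 is an established human myeloid leukaemia line with erythroid features. Most of the 10 genes are known from other tissues: villin (VIL1) from the intestinal brush border, SEZ6L2 and PACSIN1 from neurons, the estrogen receptor ESR1 from breast and uterus, and BANCR from melanoma. Cathepsin E (CTSE) is known from gastric epithelium and immune cells but also from the red cell membrane, so it is the least clearly non-erythroid of them.

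The study measured RNA in 6 libraries to learn which genes ZNF410 regulates. K562 cells with the control guide sgNeg2 were labelled wild type and gave 2 libraries. Cells with ZNF410 sgRNA#1 and with ZNF410 sgRNA#2 were labelled knockout and gave 2 libraries each, and each group had a replicate 1 and a replicate 2. The design text speaks of knockout lines, but not of whether a line was 1 clone or a pool, and the labels do not say what separates the replicates. Both guides were compared with the same control libraries. Unless FPKM is named, values are whole-number read counts per gene, or CPM made from them (counts scaled to a common library total), with 8788816 to 9537470 counts over genes per library.

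ZNF410 itself had 36.1 ± 2.97 CPM (SD, n = 2) in the control, 21.9 ± 3.73 with sgRNA#1 and 18.8 ± 2.60 with sgRNA#2. CHD4 had 628 ± 54.3, 306 ± 16.0 and 305 ± 29.7 CPM. Libraries also differed by replicate number, at 5529 of 12282 genes (edgeR's quasi-likelihood test, Benjamini-Hochberg adjusted p under 0.05). Replicate numbers are treated as pairing the libraries, so fits with the replicate number as a block are given beside those without it. Of 14 erythroid markers, 13 had at least 1 FPKM (fragments per kilobase, scaled to library size) in every library, as the cell line's label has it.

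The 10 genes lie on 8 chromosomes, and 8 are protein-coding and 2 are long non-coding RNAs. Coordinates here are those of RefSeq for GRCh38.p14. VIL1 spans chromosome 2 from 218419123 to 218453295, CTSE chromosome 1 from 206009264 to 206023895, and RAB11FIP4 chromosome 17 from 31391675 to 31538211. SEZ6L2 (29871159 to 29899550) and SULT1A1 (28605258 to 28623375) share chromosome 16, 1.25 megabases apart. PACSIN1 (34466076 to 34535223) and ESR1 (151656672 to 152129619) share chromosome 6, 117 megabases apart. BANCR lies on chromosome 9 from 69296681 to 69307056 and AFAP1-AS1 on chromosome 4 from 7754090 to 7778928. The set is thus scattered over the genome and no pair lies side by side.

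Promoter windows of RefSeq (GRCh38.p14) were found for CTSE, PACSIN1 and ESR1, and the 250 bases before 1 start of each gene are shown because the genes moved together after loss of a transcription factor. Capitals mark matches, on either strand, to GGTCA (the half-site of an estrogen response element), GGGCGG (the GC box bound by SP factors) and the site read by GATA factors such as the erythroid factor GATA1, searched as AGATAA or as TGATAA, and likewise as AGATAG or as TGATAG. The CTSE window is chr1:206023896-206024145 on the minus strand, the PACSIN1 window chr6:34514622-34514871 on the plus strand at a start inside the gene, and the ESR1 window chr6:151806946-151807195 on the plus strand, the 1 of 6 ESR1 windows with the most marked letters outside exons.
CTSE: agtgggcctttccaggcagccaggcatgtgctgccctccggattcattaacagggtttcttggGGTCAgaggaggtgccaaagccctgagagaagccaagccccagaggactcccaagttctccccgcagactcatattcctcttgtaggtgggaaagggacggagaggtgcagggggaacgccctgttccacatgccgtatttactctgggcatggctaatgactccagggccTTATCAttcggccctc
PACSIN1: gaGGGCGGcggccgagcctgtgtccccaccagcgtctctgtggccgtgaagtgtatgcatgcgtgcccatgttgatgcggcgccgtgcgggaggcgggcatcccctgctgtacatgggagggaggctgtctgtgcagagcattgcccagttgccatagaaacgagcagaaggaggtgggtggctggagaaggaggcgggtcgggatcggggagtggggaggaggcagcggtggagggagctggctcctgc
ESR1: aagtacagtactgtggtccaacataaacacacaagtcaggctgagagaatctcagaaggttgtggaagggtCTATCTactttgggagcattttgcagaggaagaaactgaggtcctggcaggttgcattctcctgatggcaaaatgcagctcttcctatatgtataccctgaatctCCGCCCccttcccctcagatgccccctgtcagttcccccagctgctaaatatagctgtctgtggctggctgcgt

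In the CTSE window a GATA-type match starts 16 bases before the gene's start and the estrogen half-site match 187 bases before it. The ESR1 window holds a GATA-type match and a GC box, and the PACSIN1 window a GC box near its far end. Of 35116 RefSeq promoter windows of 300 bases, 24.97% hold at least 1 of the 4 GATA forms, 45.0% a GC box and 37.4% the half-site, so each match is a common one. CATCCCA and CCCATAA, parts of the motif known for ZNF410, were searched on both strands and are found in 0 of the 8 windows of CTSE, PACSIN1 and ESR1, against 4.31% and 1.80% of all windows. These are matches of letters within short windows and show no binding.

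VIL1 encodes villin, which bundles and severs actin filaments in microvilli. It had 58 and 24 counts in replicates 1 and 2 of the control, 258 and 115 with sgRNA#1, and 319 and 122 with sgRNA#2. All 4 knockout libraries lay above both controls, and within each group replicate 1 lay above replicate 2. The log2 CPM differences from the equally numbered control (with a prior count of 2) were 2.05 and 2.16 with sgRNA#1 and 2.33 and 2.29 with sgRNA#2. The 2 deposited quantifications gave nearly the same picture, since the largest shift of such a difference was 0.0734 when the RSEM expected counts replaced the whole-number counts. In deposited FPKM, which allow levels of genes to be compared per length, VIL1 stood at 2.53 and 1.06 in the control and at 4.82 to 12.69 after knockout. The last exons of VIL1 share 3045 of its 6920 exon bases with USP37 on the opposite strand (GENCODE v29), and USP37 had a blocked log2 fold change of -0.13 (edgeR's adjusted p 0.636).

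PACSIN1, also called syndapin I, bends membranes and binds dynamin in the endocytosis of synaptic vesicles. Its counts were 47 and 37 in the control, 127 and 102 with sgRNA#1 and 168 and 110 with sgRNA#2, again without overlap between knockout and control. The paired log2 differences were 1.33 and 1.40 with sgRNA#1 and 1.71 and 1.56 with sgRNA#2. RAB11FIP4, an effector of the small GTPase Rab11 at recycling endosomes, had a smaller difference from a higher count. It had 152 and 160 counts in the control, 249 and 281 with sgRNA#1 and 284 and 292 with sgRNA#2. Its paired log2 differences lay between 0.64 and 0.90, and in contrast to VIL1 the control replicates stood side by side. A gene of unassigned type on the opposite strand covers 768 of the 15383 exon bases of RAB11FIP4.

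CTSE had the opposite order of replicates to VIL1 in every group. This aspartic protease of the endosome had 14 and 29 counts in the control, 52 and 96 with sgRNA#1 and 66 and 97 with sgRNA#2. Every knockout library lay above both controls, and replicate 2 lay above replicate 1 in all 3 groups. The paired log2 differences were 1.70 and 1.65 with sgRNA#1 and 2.01 and 1.72 with sgRNA#2. SEZ6L2, a membrane protein of the seizure-related family, had the reverse order: 47 and 15 counts in the control, 199 and 55 with sgRNA#1 and 164 and 50 with sgRNA#2. Its knockout libraries of replicate 2 stood close to control replicate 1, at 55 and 50 against 47 counts. In FPKM the SEZ6L2 groups overlapped, with 2.11 in control replicate 1 against 1.82 and 1.76 in the knockout libraries of replicate 2. Within a replicate number the SEZ6L2 log2 differences from control were 1.97 and 1.73 with sgRNA#1 and 1.67 and 1.65 with sgRNA#2.

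ESR1 encodes estrogen receptor alpha, a hormone-activated transcription factor. It had 59 and 64 counts in the control, 173 and 144 with sgRNA#1 and 164 and 161 with sgRNA#2. The groups stood far apart and the replicates close together, with paired log2 differences between 1.14 and 1.46. Per length ESR1 stayed a low transcript, at 0.79 and 0.65 FPKM in the control and 1.89 to 2.41 in the knockout libraries. SULT1A1, which adds sulfate to phenols including estrogens, was by contrast the most abundant of the 10 per length. It had 179 and 149 counts in the control, 297 and 278 with sgRNA#1 and 285 and 283 with sgRNA#2, and 17.13 to 19.41 FPKM in the control against 28.74 to 33.01. Its paired log2 differences lay between 0.57 and 0.96. SULT1A1 has close paralogs, and whether reads were split among them was not tested. Of these, SULT1A3 and SULT1A4 had 0 whole-number counts in each library but 87.76 to 318.08 and 87.76 to 317.23 expected counts.

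FAM167A, on chromosome 8, had 24 and 25 counts in the control, 80 and 65 with sgRNA#1 and 74 and 63 with sgRNA#2. The groups did not overlap, and the 4 paired log2 differences were at most 1.60 (mean 1.42). Its antisense neighbour FAM167A-AS1 shares 0 exon bases with it and had 6 counts over the 6 libraries.

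In CPM the non-coding members were the lowest (BANCR) and the highest (AFAP1-AS1) of the 10, whereas in FPKM SULT1A1 was the highest. BANCR, a long non-coding RNA first described as induced by mutant BRAF in melanoma, had 5 and 0 counts in the control, 50 and 18 with sgRNA#1 and 48 and 10 with sgRNA#2. It was the lowest of the 10, and its paired log2 differences, from 2.59 to 3.28, depend on the prior count because a control held 0 counts. The mean of the 4 was 2.87 with a prior count of 2 and 3.94 with 0.5. Its expected counts were only 1 and 0 in the control, 20 and 2 with sgRNA#1 and 7 and 2 with sgRNA#2, and the whole-number count over all libraries was 4.09 times the expected count. AFAP1-AS1, a long non-coding RNA antisense to the actin-binding protein gene AFAP1 and described in several carcinomas, had 679 and 530 counts in the control. It had 1107 and 1115 counts with sgRNA#1 and 1163 and 1118 with sgRNA#2, so the controls differed from each other more than the knockout libraries did. The AFAP1-AS1 paired differences were 0.64 and 0.68 in replicate 1 and 1.06 and 1.12 in replicate 2.

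**Figure D1:**
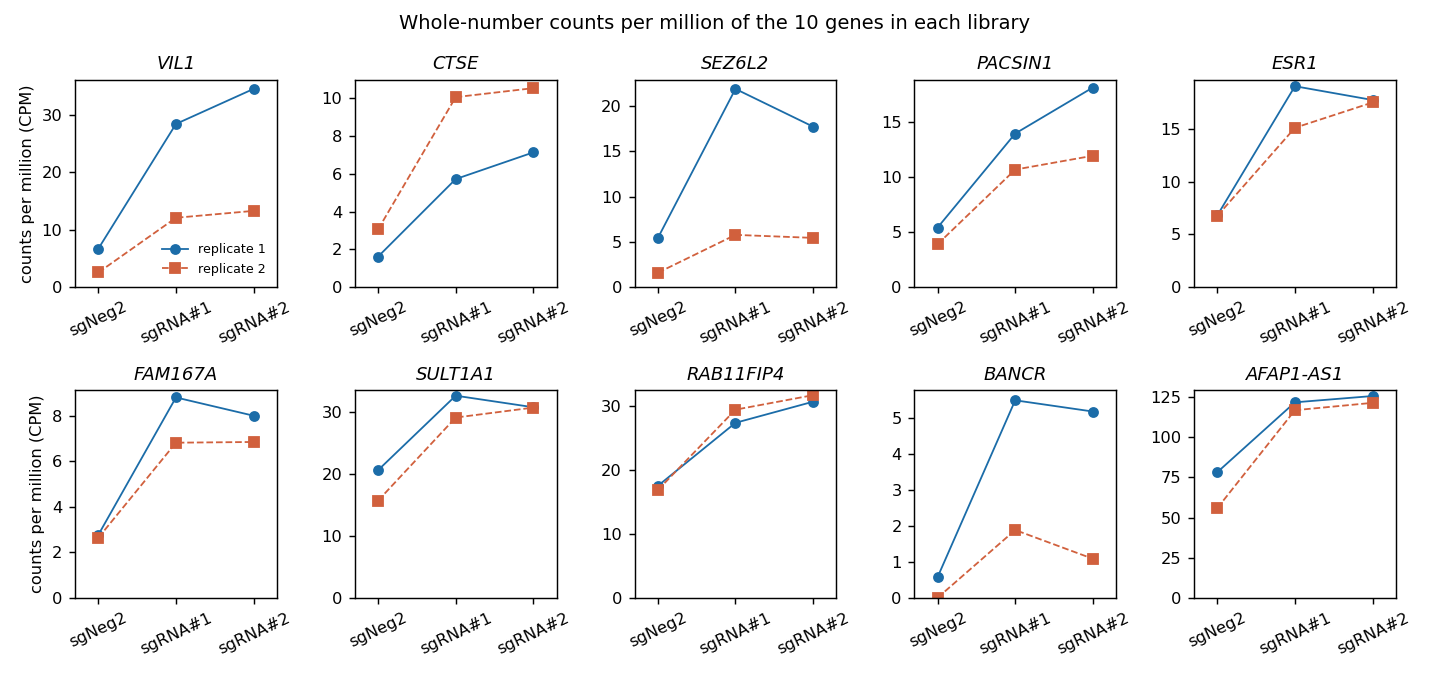
Whole-number CPM (y axis, linear, 1 scale per gene) of the 10 genes in the 6 libraries, by guide (x axis), with replicate 1 as circles and replicate 2 as squares joined across groups. In each panel the 4 knockout points lie above both sgNeg2 points, and replicate 1 lies above replicate 2 in each group for 8 genes, widely for VIL1, SEZ6L2 and BANCR and narrowly in at least 1 group for ESR1, FAM167A, SULT1A1 and AFAP1-AS1, and below it in each group for CTSE.

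As a description of the rule's own contrast, 10 of 10 genes had all 4 knockout libraries above both controls in CPM, where 5.05% of all tested genes did. Likewise 10 of 10 had all 4 paired differences above 0, where 16.2% of tested genes did. Blocked log2 fold changes of knockout against control ran from 0.77 (SE 0.113) for SULT1A1 to 3.58 (SE 0.555) for BANCR. They were 2.26 (SE 0.169) for VIL1, 1.85 (SE 0.207) for SEZ6L2 and 1.84 (SE 0.241) for CTSE. The median over the 10 was 1.52, beside 0.00 over all tested genes. SULT1A1, RAB11FIP4 and AFAP1-AS1 had the smallest blocked log2 fold changes, each under 1. At an adjusted p under 0.05, edgeR called 0 of the 10 genes higher without the block, where 0% of all genes were called, and 10 of 10 with it, where 1.19% were. In expected counts with the block it was 9 of the 9 tested, where 1.97% of genes were called higher. Nothing is read from these counts, because the genes were chosen on this contrast.

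The 2 deposited tables were set side by side for each gene, since they come from different quantification tools. All 40 paired differences were above 0 in both tables. For the members other than BANCR the whole-number count was 0.522 to 0.718 of the expected count, near the median of 0.553 over 11675 tested genes. In expected counts the mean paired log2 difference was 2.17 for VIL1, 1.902 for CTSE, 1.66 for SEZ6L2 and 1.498 for ESR1, against 2.21, 1.77, 1.76 and 1.32 in whole-number counts. The largest gap of a single paired difference was 0.49 for ESR1 outside BANCR and 2.295 for BANCR. BANCR therefore has the same direction but no common size in the tables, and its expected counts did not pass the filter for testing.

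**Figure D2:**
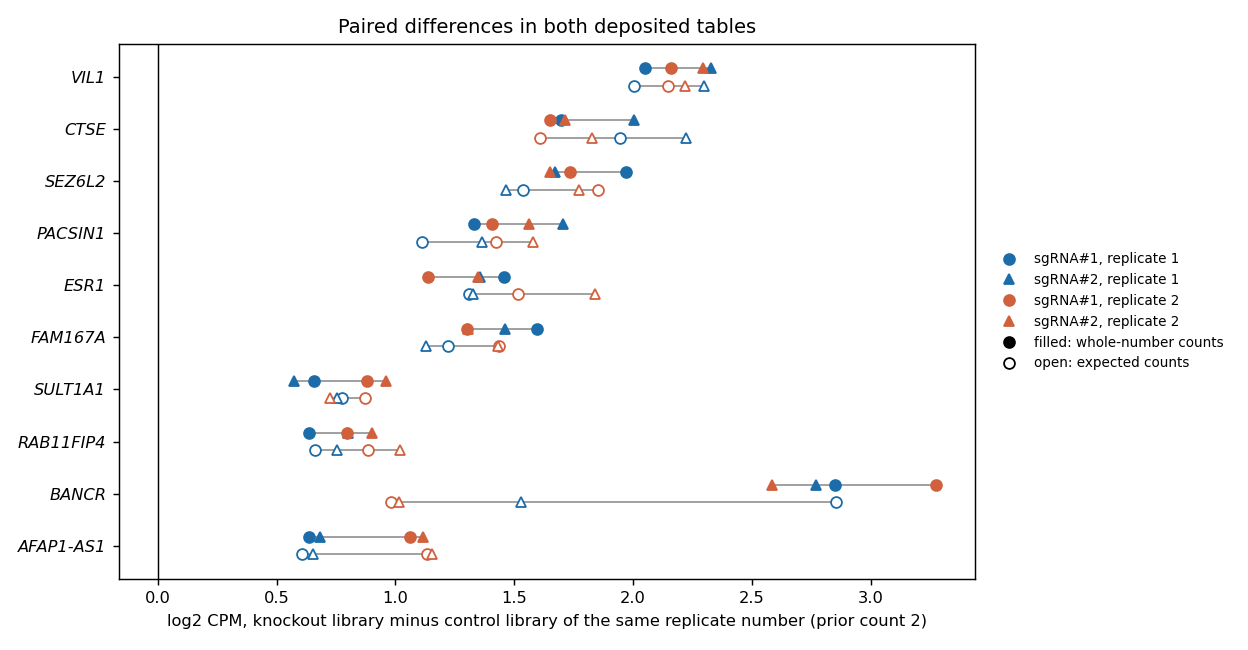
Log2 CPM of each knockout library minus the control of the same replicate number (x axis) for the 10 genes (y axis), with whole-number counts as filled and expected counts as open symbols and the line spanning the 4 values. All values lie right of 0, the symbols of VIL1 nearly coincide between tables, and those of BANCR spread from 0.98 to 3.28.

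Ordered by deposited FPKM in the control, SULT1A1 (18.3 ± 1.61, SD, n = 2) stood first and AFAP1-AS1 (9.53 ± 2.58) next, apart from each other and from the rest. RAB11FIP4 (2.02 ± 0.0778), VIL1 (1.80 ± 1.04), SEZ6L2 (2.11 and 0.49 in its libraries), CTSE (1.11 ± 0.594) and PACSIN1 (1.11 ± 0.396) followed, and each overlapped its neighbour in this order. ESR1 (0.720 ± 0.0990) and FAM167A (0.695 ± 0.205) overlapped each other, and BANCR (0.0800 ± 0.113) came last. In the knockout libraries SULT1A1 (31.5 ± 1.92, n = 4) and AFAP1-AS1 (17.4 ± 0.510) kept their places. VIL1 (8.24 ± 3.88) moved from place 4 to place 3, RAB11FIP4 (3.61 ± 0.312) fell back behind CTSE (4.26 ± 1.33) and SEZ6L2 (3.94 ± 2.48), and every gene from VIL1 down overlapped its neighbour in range. The control level of the members lay between percentile 3.01 for BANCR and 63.8 for SULT1A1 of the tested genes. Apart from SULT1A1 and AFAP1-AS1 (percentile 48.5), the genes lay at percentile 21.2 (RAB11FIP4) or below in control cells, VIL1 at 20.1.

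The guides were compared with each other to see whether the size of the response depended on the guide. The genes were chosen on the same knockout libraries, which may favour genes alike between guides, so likeness of the guides is no independent evidence. No difference between sgRNA#2 and sgRNA#1 was called for the 10 genes: 0 of 10 with the block, where edgeR called 0.0896% of all genes, and 0 of 10 without it, where 0 genes were called and 33 had an unadjusted p under 0.05. Both counts lie near the shares over all genes, so nothing is read from them. The blocked log2 differences, sgRNA#2 minus sgRNA#1, ran from -0.34 (SE 0.411) for BANCR to 0.28 (SE 0.178) for PACSIN1. BANCR passed the filter on low counts only through the knockout libraries, for which it was picked. VIL1 stood at 0.22 (SE 0.145), SEZ6L2 at -0.22 (SE 0.195) and CTSE at 0.18 (SE 0.232). The most precise were AFAP1-AS1 at 0.05 (SE 0.0917), RAB11FIP4 at 0.13 (SE 0.121) and SULT1A1 at -0.00 (SE 0.127). All 10 adjusted p in edgeR's blocked test were 0.999 or more, so no difference between guides was detectable at these errors, which for BANCR leave room for a sizeable one.

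Replicate numbers were compared next, a difference that was not the ground for choosing the genes. In the fit with group and number, edgeR called 5 of the 10 genes between replicate 2 and replicate 1, close to the 45% of all tested genes that were called. SEZ6L2 was lower in replicate 2, with a log2 difference of -1.81 (SE 0.176, edgeR's adjusted p 1.90e-06), a size like that of its knockout difference. VIL1 was lower by -1.32 (SE 0.133, edgeR's adjusted p 2.45e-06) and BANCR by -1.97 (SE 0.403, edgeR's adjusted p 0.00119). BANCR passed the filter on low counts only through the knockout libraries, the group for which it was picked, and its expected counts did not pass. PACSIN1 stood at -0.49 (SE 0.156, edgeR's adjusted p 0.0190). CTSE was the 1 member higher in replicate 2, by 0.73 (SE 0.208, edgeR's adjusted p 0.0104). By direction these are 4 lower, with BANCR among them, and 1 higher of 10, where 23.5% of all genes were lower and 21.6% higher. Nothing is read from the BANCR call. The CTSE call was lost without sgRNA#1 replicate 1 (edgeR's adjusted p 0.0831) or sgRNA#1 replicate 2 (0.0898). The PACSIN1 call was lost when any 1 of the 4 knockout libraries was left out, at an edgeR adjusted p from 0.0613 without sgRNA#1 replicate 2 to 0.130 without sgRNA#2 replicate 1.

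The other members differed little by number: ESR1 by -0.14 (SE 0.139), FAM167A by -0.24 (SE 0.208), SULT1A1 by -0.17 (SE 0.108) and RAB11FIP4 by 0.04 (SE 0.102) on the log2 scale, none called. AFAP1-AS1 stood at -0.18 (SE 0.0774, edgeR's adjusted p 0.0740) and crossed the threshold in the expected counts at -0.21 (edgeR's adjusted p 0.0492), where 52.6% of all genes were called. AFAP1-AS1 also did so in whole-number counts with no filter beyond 1 count (edgeR's adjusted p 0.0294), but not in the DESeq2 Wald test (adjusted p 0.197). Leaving out 1 knockout library gave -0.24 to -0.25, whereas leaving out either control shrank the value to -0.05.

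**Figure D3:**
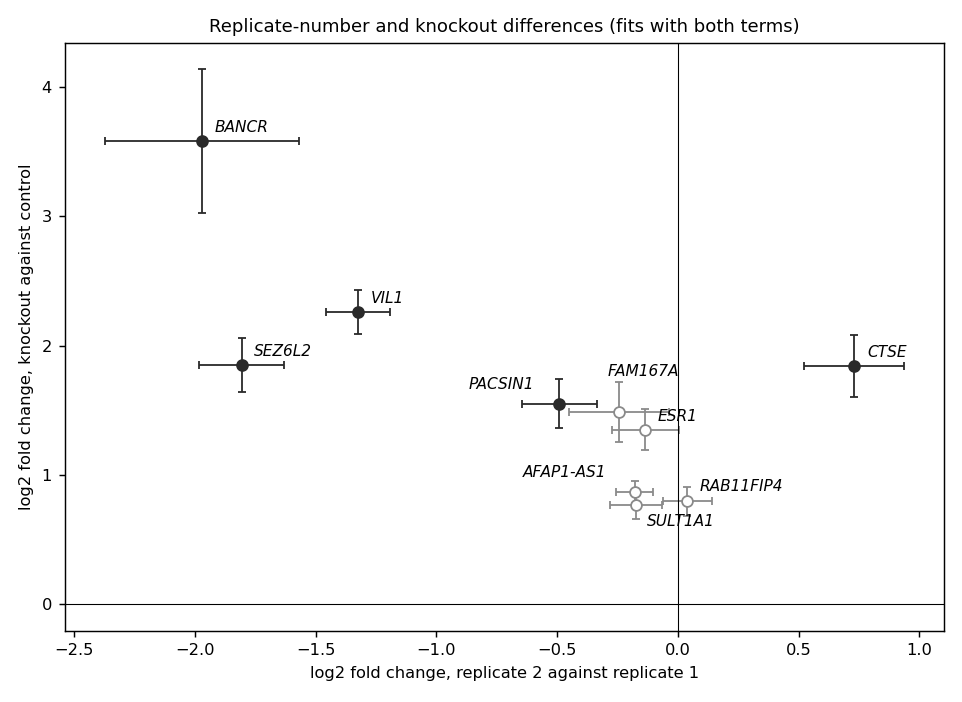
Log2 fold change of replicate 2 against replicate 1 (x axis) and of knockout against control (y axis) for each of the 10 genes, from the fits with both terms, with standard errors as bars and filled points for genes called between replicate numbers. BANCR, SEZ6L2, VIL1 and PACSIN1 lie left of 0, CTSE lies at 0.73, and the remaining genes stand near 0 on the x axis.

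Erythroid markers moved along both of these axes, and their part in the members' values was not tested. With the block, 6 of 14 erythroid markers rose in knockout, HBE1, HBG1, HBG2 and HBZ among them, where 1.19% of all genes were called higher, against 0 of 14 without the block and 9 of 14 in expected counts with it. Between replicate numbers 12 were higher and 1 lower in replicate 2, where 21.6% and 23.5% of all genes were. Their summed FPKM ranged from 14032.5 to 30682.2 in the control and from 18124.2 to 44021.2 in the knockout libraries. In knockout the members rise because they were chosen for it, so only the direction between numbers is compared. There CTSE, with replicate 2 above replicate 1, shared the direction of most erythroid markers, whereas VIL1, SEZ6L2 and PACSIN1 did not. The CTSE difference between numbers was not called in the DESeq2 Wald test (adjusted p 0.102). In bulk RNA, more cells of a state and more RNA per cell cannot be told apart.

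Markers of the tissues in which the members are best known were also read. Of 12 epithelial markers 5 were tested and 0 called in the blocked knockout contrast, where 226 of 12282 genes were called. With so few tested genes, 0 called here and in the lists below lies near that share. The summed epithelial level was 473.93 to 645.44 FPKM in the control and 455.36 to 642.8 in knockout. KRT7, CDX2 and GRHL2 had 0 counts in all libraries. Of 12 neuronal markers 3 were tested and 0 called, at a summed 10.94 to 22 against 11.73 to 19.64 FPKM, and MAP2, SNAP25, STMN2, ELAVL4, DCX and NEFL had 0 counts. Of 7 melanocyte markers 1 was tested and 0 called, at a summed 7.48 to 7.51 against 7.68 to 8.71 FPKM, and TYR and TYRP1 had 0 counts. Other genes of these lists were plainly detected, among them KRT8 (252 to 434 CPM), EPCAM (93.8 to 112), TUBB3 (12.6 to 26.3) and MITF (31.8 to 36.2). In expected counts with the block EPCAM was called lower in knockout, at -0.22 (edgeR's adjusted p 0.0410). Of 6 fibroblast markers COL1A1 alone was tested, with 0 and 1 counts in the control and 8 to 14 in knockout, and was called with the block (edgeR's adjusted p 0.0273). COL1A1 passed the filter only through the knockout libraries, where it is high, so nothing is read from this call. The COL1A1 call was lost without either control replicate (0.303 and 0.0564), either sgRNA#1 replicate (0.108 and 0.0916) or sgRNA#2 replicate 1 (0.0755), and DESeq2 gave it no adjusted p. Megakaryocyte, monocyte and lymphocyte lists had 3, 2 and 2 tested genes, and 0 called in knockout. Between replicate numbers ITGA2B (-2.85), CD3D (-2.53) and LYZ (-2.34) of these lists were called lower in replicate 2, as were KRT8, KRT18, TUBB3 and SYP. By list that is 2 of 5 tested epithelial, 2 of 3 neuronal, 1 of 3 megakaryocyte, 1 of 2 monocyte and 1 of 2 lymphocyte genes. In the non-erythroid lists 0 genes were called higher, where 23.5% of all genes were lower and 21.6% higher. VIL1, SEZ6L2 and PACSIN1 shared the lower direction, and the part of these markers in the members' values was not tested.

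Relatives and partners of the members were then examined, from lists of 82 genes that hold no member, to see whether families moved as a whole. Of the 45 that were tested, 0 were called in knockout against control without the block and 4 with it, all higher, where 1.19% of all genes were higher. AFAP1, 1 of the 4, overlaps the member AFAP1-AS1, so its counts may hold reads of that member. In expected counts with the block 3 of 47 were higher, without AFAP1, and 1 lower, where 1.97% of all genes were higher. The median blocked log2 fold change of the 45 was 0.01, beside 0.00 for all tested genes, so the few that were called stood out from a list centred near 0.

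In the villin and gelsolin family, 1 of 7 tested genes rose. SCIN, which encodes scinderin, an actin-severing relative of villin, had 103 and 184 counts in the control, 204 and 285 with sgRNA#1 and 215 and 322 with sgRNA#2. Its blocked log2 fold change was 0.83 (SE 0.121, edgeR's adjusted p 0.00182). In contrast to VIL1, SCIN was higher in replicate 2 in each group. FLII, the most abundant of the family, stood at -0.01 (SE 0.0606). Among brush-border partners, 1 of 3 tested genes rose: ESPN, which encodes the actin bundler espin. It had 81 and 229 counts in the control and 113 and 354, then 164 and 415, with the guides. The ESPN groups overlapped, since control replicate 2 lay above both knockout libraries of replicate 1. The ESPN log2 fold change was 0.74 (SE 0.146, edgeR's adjusted p 0.0169), and the call was lost without control replicate 2 (0.152). Ezrin (EZR), the most abundant partner, stood at -0.19 (SE 0.0622, edgeR's adjusted p 0.182), and in expected counts it was called lower at -0.22 (edgeR's adjusted p 0.0366).

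Of the PACSIN family and its endocytic partners, 1 of 6 tested genes rose. DNM1, the neuronal dynamin that syndapin binds, had 390 and 243 counts in the control, 623 and 319 with sgRNA#1 and 592 and 340 with sgRNA#2, a log2 fold change of 0.51 (SE 0.0857, edgeR's adjusted p 0.00492). The DNM1 groups overlapped, since control replicate 1 lay above the knockout libraries of replicate 2, and without control replicate 1 the call was lost (0.103). The ubiquitous relatives DNM2 and PACSIN2 stood at 0.08 (SE 0.0558) and -0.01 (SE 0.0676). Of 6 tested genes of Rab11 and its effectors 0 were called, near the share of 226 of 12282 over all genes, with RAB11FIP1 at 0.01 (SE 0.0570). Of 3 aspartic proteases 0 were called, likewise near that share, and CTSD, the ubiquitous lysosomal relative of CTSE, stood at -0.15 (SE 0.0655).

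The genes around estrogen signalling were read beside ESR1. Of 5 tested nuclear receptors, 7 cofactors and 7 classical estrogen receptor targets, 0 were called in each list, where 226 of 12282 genes were called with the block. PGR stands in both the receptor and the target list. Lists this small would hold few calls at that share, so nothing is read from these counts. ESRRB stood at 0.59 (SE 0.170, edgeR's adjusted p 0.112), the target PGR at 0.33 (SE 0.203, edgeR's adjusted p 0.547) and the pioneer factor FOXA1 at 0.94 from 9 and 13 control counts (SE 0.368, edgeR's adjusted p 0.271). The target with the highest mean count, IGFBP4, stood at -0.22 (SE 0.0906), though its CPM lay below that of XBP1 in every replicate 2 library. The most abundant receptor, ESRRA, stood at -0.04 (SE 0.0727). Of the sulfotransferases SULT1A2 alone was tested in whole-number counts, at 0.76 (SE 0.317, edgeR's adjusted p 0.316), with 15 to 19 counts in the control and 27 to 33 in knockout. In expected counts SULT1A2 stood at 0.25 (SE 0.271), and SULT1A3, SULT1A4 and SULT2B1, tested only there, at 0.40 (SE 0.142), 0.39 (SE 0.142) and 0.90, none called. SEZ6 and SEZ6L had 0 counts in each library, and FAM167B had at most 5, below the filter for testing.

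AFAP1, the gene to which AFAP1-AS1 is antisense, was called in the whole-number counts with the block. It had 130 and 76 counts in the control, 193 and 209 with sgRNA#1 and 198 and 176 with sgRNA#2, a log2 fold change of 0.89 (SE 0.171, edgeR's adjusted p 0.0136). Its expected counts were far lower, 12.02 and 17 in the control and 20.01 to 41.04 in knockout, and the whole-number count was 6.81 times the expected count. In expected counts AFAP1 stood at 0.95 (SE 0.332) and was not called (edgeR's adjusted p 0.169). The genes share 523 of the 6795 exon bases of AFAP1-AS1 on opposite strands, and the strand setting of the counting is not given in the sources used here, so whole-number counts of AFAP1 and AFAP1-AS1 cannot be fully told apart. Without control replicate 2 the AFAP1 value was 0.51 (edgeR's adjusted p 0.194), without control replicate 1 it was 1.35, and without sgRNA#1 replicate 2 the adjusted p was 0.0520.

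**Figure D4:**
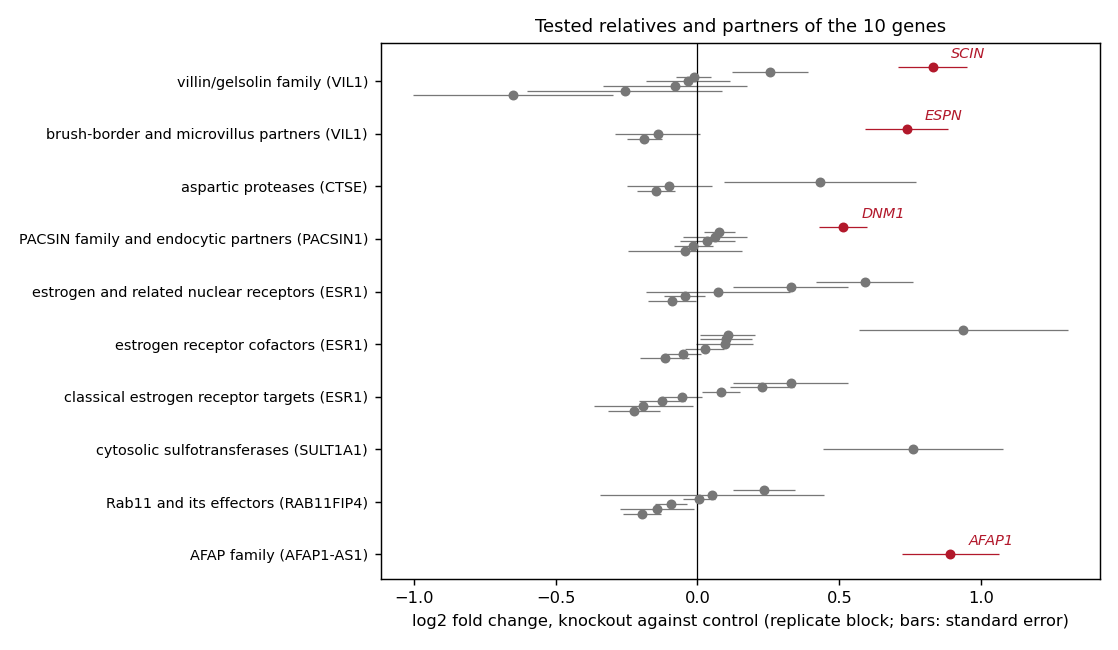
Blocked log2 fold change of knockout against control (x axis; bars are standard errors) of the tested relatives and partners, grouped by list (y axis), with called genes in red. SCIN, ESPN, DNM1 and AFAP1 lie between 0.51 and 0.89, and AFAP1 overlaps the member AFAP1-AS1. The other points scatter around 0, apart from uncalled values with wide errors such as FOXA1 at 0.94 and SULT1A2 at 0.76.

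The nearest tested genes on the chromosomes were read to see whether the regions moved with the members. Of 40 flanking genes, 2 on each side of each member, 0 were called in edgeR's blocked test, where 226 of 12282 genes were. It was 0 in the unblocked test, where 0 genes were called, and 0 in expected counts with the block, where 387 of 12764 were. These counts lie near the shares over all genes, so nothing about the regions is read from them. The flanking genes had a median blocked log2 fold change of 0.02. CDIPT, 7933 bases from SEZ6L2, stood at 0.01, CTDSP1, 13182 bases from VIL1, at -0.05, and NF1, 14000 bases from RAB11FIP4, at 0.05. The highest value, 1.75 (SE 0.671, edgeR's adjusted p 0.257), was that of NUPR1 near SULT1A1, from 3 and 2 control counts. The lowest was -0.63 (SE 0.682) for SH3TC1. Of the 2 tested genes that overlap a member, USP37 was not called and AFAP1 was, as given above.

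**Figure D5:**
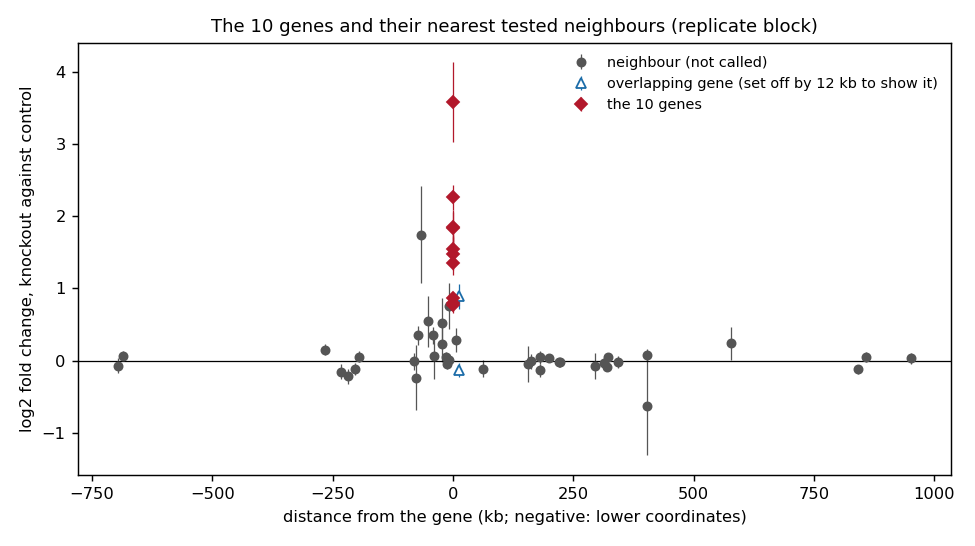
Blocked log2 fold change of knockout against control (y axis; bars are standard errors) of the 10 genes at distance 0, of genes overlapping them and of 40 flanking genes by distance in kilobases (x axis). The 10 genes stand between 0.77 and 3.58, while the flanking genes scatter around 0 apart from NUPR1 at 1.75 with a wide error.

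Whether the knockout difference was itself the same in both replicate numbers was asked with a product term of knockout and number, a test added after the data had been seen. edgeR called 0 of the 10 genes, where 0.244% of all genes were called, and 0 of 9 in expected counts, where 0.11% were. Both counts lie near those shares, and the choice may favour genes alike in both numbers, so nothing is read from them. AFAP1-AS1 came nearest, with a knockout difference larger in replicate 2 by 0.43 (SE 0.127, unadjusted p 0.00325 and adjusted p 0.276 in edgeR's test), and by 0.51 in expected counts (SE 0.107, unadjusted p 0.000273 and adjusted p 0.103). The term was 0.31 (SE 0.217) for SULT1A1 and 0.08 (SE 0.367) for VIL1, and its error for BANCR, 2.15, was too wide to be read.

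Genes whose pattern resembled that of the members were ranked by the Pearson correlation of log2 CPM, centred within replicate number, with the members' mean over the 6 libraries. This is a description over 6 libraries that share controls and replicate numbers, and carries no p. The nearest non-members were CSPG5 (r = 0.999), MDK (0.998), CEP85 (0.998), ABHD5 (0.998) and CT55 (0.997). MDK, which encodes the growth factor midkine, had 1135 and 758 counts in the control, 2113 and 1435 with sgRNA#1 and 2136 and 1351 with sgRNA#2, a blocked log2 fold change of 0.86 (SE 0.0586). CT55, a cancer-testis gene, had 17 and 8 counts in the control and 32 to 65 in knockout. Likeness of pattern says nothing of size, since CEP85 differed between knockout and control by 0.09 only (SE 0.0568). The members were chosen for this contrast in the same libraries, which sets much of the pattern that the ranking follows.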

How the data were processed

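RNA of 6 K562 libraries was analysed, 2 each with sgNeg2, ZNF410 sgRNA#1 and ZNF410 sgRNA#2, grouped by their titles. Reads were processed by the authors with Trim Galore, HISAT2 2.2.1, SAMtools 1.9, HTSeq 0.6.1, RSEM 1.3.2 and DESeq2 1.36.0 on build hg38, per the submitters' processing notes. The strand setting is not given in the sources used here. The authors deposited a whole-number count per gene symbol, and 5 rows that name no gene held 61.6% to 62.6% of each table and were left out. Per the file headers, the authors' second table holds an expected count, an FPKM and a TPM for each gene. TPM values as deposited entered no test. FPKM values, normalized by the authors for length and depth per the file headers, served to compare levels between genes. Expected counts were rounded before testing.

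Counts were tested with edgeR 4.0.16 (R 4.3.3): filterByExpr by group, TMM scaling, quasi-likelihood F-test, and calls at a Benjamini-Hochberg adjusted p below 0.05 over all 12282 genes (12764 in expected counts). A standard error here is the fold change on the log2 scale over the root of the F statistic. Knockout against control was fitted as 4 against 2 libraries, the guides from 3 group means, and the replicate difference from a fit with group and number. The procedure was tested on simulated data. DESeq2 1.42.0, expected counts, no filter beyond 1 count, DESeq2 size factors and leaving out each library were alternatives.

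Libraries of the same replicate number deviated together from their group means, with r = 0.811, 0.757 and 0.824 over the 9966 genes averaging 50 counts or more. What a number means is not stated in the labels, so it is the data that give the pairing. Replicates of a group differed by a chi-square of 23.8 to 28.5 per degree of freedom and were not repeated deposits. Nothing in the labels says that replicates came from separate cultures, so p-values measure only the spread between these samples. Members, lists and tests were chosen with earlier results of these data known. All 10 members are named; of each related list, the called genes and otherwise the most abundant tested gene are named, together with a few chosen after their values were seen (FLII, EZR, DNM2, PACSIN2, ESRRB, PGR and FOXA1), as are the 2 nearest tested genes on each side of a member where their values are given. Some genes that this rule names are not reported here. RefSeq tables (GRCh38.p14) gave neighbours and promoters, and GENCODE v29 exon overlaps.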

Additional observations from a re-analysis of the deposited data

How the results depend on the processing

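With 2 libraries a group, calls turned on the replicate block. Without the block edgeR called 0 genes in knockout against control (284 at an unadjusted p under 0.05), and the DESeq2 Wald test called 19, 6 and 4 genes in knockout, sgRNA#1 and sgRNA#2 against control. Without a filter beyond 1 count 1 gene was called in knockout. In the replicate block, the pairing taken from the data, 226 genes were called in knockout, 109 with sgRNA#1, 170 with sgRNA#2 and 11 between the guides. In the same order the blocked counts were 225, 106, 164 and 8 with DESeq2 size factors, 245, 289, 421 and 53 without a filter, 162, 53, 73 and 4 with DESeq2, and 387, 178, 289 and 7 in expected counts. The mean of the 2 guide contrasts with the block, added after the data had been seen, called 233. Leaving out each library in turn gave 0 to 2 calls in knockout without the block and 141 to 236 with it, and with the block 63 to 459 with sgRNA#1, 161 to 634 with sgRNA#2 and 15 to 90 between the guides. Between replicate numbers DESeq2 called 3438 genes against 5529, and leaving out each library gave 3979 to 5471. The product term called 30 genes in whole-number and 14 in expected counts.

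Of the related genes 4 were called in each blocked setting with all libraries and 2 to 4 when a library was left out, and of the flanking genes 0 to 1. The 4 in expected counts were not the same genes as in whole-number counts: AFAP1 was not called there, and EZR was called lower. The 228 knockout values of the members under the alternatives were all above 0, and 216 lay within the SD of log2 CPM between replicates of the reported value. That SD holds the replicate-number difference and so is wide for SEZ6L2 and VIL1, whose shifts given next all count among the 216. Leaving out a single control shifted several unblocked values: SEZ6L2 from 1.23 without control replicate 2 to 2.98 without control replicate 1, VIL1 from 1.72 to 3.11 and AFAP1-AS1 from 0.63 to 1.11. BANCR ran from 2.54 to 7.99, the latter against a control with 0 counts, which sets no bound. Between replicate numbers the DESeq2 adjusted p was 0.102 for CTSE and 0.178 for PACSIN1. Control libraries held 0 to 64 counts for 7 of the 10 genes, so depth limits the precision of their knockout differences.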
